A study of Rattus norvegicus with 22 samples.

Results

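The miRNAs described here carry the numbers miR-137, miR-138 and miR-218, which act on synapses. They were chosen by name, with earlier results of these data known. Every name in the miRNA column that carries exactly the number of miR-137, miR-138 or miR-218, with any letter, copy or arm, was taken. This gave 9 names on 10 rows, out of 468 names on 484 rows. The names are rno-miR-137-3p, rno-miR-138-5p, rno-miR-138, rno-miR-138-1-3p, rno-miR-138-2-3p, rno-miR-218a-5p (which stands on 2 rows), rno-miR-218a-1-3p, rno-miR-218a-2-3p and rno-miR-218b. The small RNA libraries were made from hippocampus of Long Evans rats, all male and aged 14 weeks, with RNA taken from the CA1 field per the labels' protocols. The 11 libraries of the CPF group came from rats given chlorpyrifos, an organophosphate insecticide that inhibits acetylcholinesterase. It was given under the skin at 10 mg/kg body weight per day for 21 days. The 11 libraries of the control group came from rats that had received peanut oil, the vehicle, for the same 21 days. The labels describe a cohort that went through fear conditioning and a cohort that did not, and do not say to which a library belongs. They do not name the animal behind a library, so n counts libraries here. A p-value rests on how far these libraries scatter, which may be technical.

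miRNAs are short RNAs that guide Argonaute proteins to messenger RNAs, mainly through the seed, bases 2 to 8 from the 5′ end, and lower the output of those messages. miR-138 is known from rat hippocampal neurons as an inhibitor of dendritic spine growth, through the depalmitoylating enzyme Lypla1 (APT1). miR-137 is enriched in neurons, acts on transmitter release and on the glutamate receptor subunit GluA1, and lies at a human locus associated with schizophrenia. miR-218 is made from introns of Slit2 and Slit3, genes of axon guidance cues, and is known in the nervous system for motor neurons and for excitatory synapses of the hippocampus.

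The mature sequences of the 3 leading names are shown first because the values below are read counts of these molecules and their seeds decide which messages they can pair with. They are RefSeq sequences (build GRCr8), 5′ to 3′, with the seed in capitals.
rno-miR-137-3p: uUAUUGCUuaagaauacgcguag
rno-miR-138-5p: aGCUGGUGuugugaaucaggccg
rno-miR-218a-5p: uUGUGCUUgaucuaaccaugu
The 3 seeds differ, and no other mature rat miRNA in the RefSeq table carries any of them. The 3 names are therefore not a seed family, and are grouped here by what is known of their function.

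miR-138-5p and miR-218a-5p are each encoded by 2 genes, whose opposite arms differ. The hairpins of Mir138-1 (chromosome 8 of the rat) and Mir138-2 (chromosome 19), with both arms in capitals, show an identical 5p arm and distinct 3p arms, so that only the 3p arm tells the genes apart.
Mir138-1: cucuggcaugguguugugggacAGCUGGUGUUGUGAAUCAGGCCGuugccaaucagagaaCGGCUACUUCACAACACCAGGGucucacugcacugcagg
Mir138-2: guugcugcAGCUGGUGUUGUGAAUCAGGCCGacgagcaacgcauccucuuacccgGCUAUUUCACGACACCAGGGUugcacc
The 3p arms of the miR-138 genes differ by 5 single-base edits, and those of the miR-218 genes, printed here with the seed in capitals, by 8.
rno-miR-218a-1-3p: aAACAUGGuuccgucaagcac
rno-miR-218a-2-3p: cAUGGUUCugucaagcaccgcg
In the GRCr8 annotation Mir218-1 (chromosome 14) lies within Slit2, Mir218-2 (chromosome 10) within Slit3, and Mir138-2 within Slc12a3, the thiazide-sensitive sodium chloride cotransporter gene. Mir137 (chromosome 2) and Mir138-1 overlap lncRNA genes. RefSeq held 8 of the 9 names, and rno-miR-138 was the name it did not hold.

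The libraries held 47844 to 94981 reads assigned to miRNAs, so that 1 read was worth 10.5 to 20.9 reads per 1000000 (RPM). The CPF libraries averaged 74134 ± 12857 reads and the control libraries 70880 ± 6709 (SD, n = 11 each). All 162 values above 0 of the 9 names were whole reads, to within 5% of a read. A name with 3 reads, taken here as the floor of what can be measured, had 31.6 to 62.7 RPM. The summed RPM of 16 names of neuron-enriched miRNAs (miR-9, miR-124, miR-128, miR-129, miR-153) was 53256 to 76072 in CPF libraries and 51396 to 76226 in control libraries. CPF replicate 1 stood apart, with 17488 RPM of miR-181a-5p, against at most 4130 in any other library, and 14435 RPM of miR-153-3p, against at most 693. Without miR-153-3p the neuron sum was 47863 to 75532 RPM in CPF libraries, lowest in replicate 1, and 50703 to 75720 RPM in control libraries. CPF replicates 7, 8 and 9 were high in the summed RPM of 9 names of choroid plexus and ependyma. This sum was 635 to 8005 RPM in CPF libraries and 580 to 1097 RPM in control libraries.

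The hippocampal level of these miRNAs did not differ detectably between CPF-treated and control rats. Together the 9 names made up 0.412 ± 0.0249% of all RPM in CPF libraries and 0.415 ± 0.0212% in control libraries (SD, n = 11 each), which is 188 to 368 reads per library. Their levels stood in the order miR-138-5p, miR-218a-5p, miR-137-3p, miR-138 in the group means of CPF and of control rats. The lowest miR-138-5p value of any library lay above the highest of miR-218a-5p, and the lowest of miR-218a-5p above the highest of miR-137-3p, while the ranges of miR-137-3p and miR-138 overlapped. RPM counts molecules without a length term, which suits mature miRNAs of nearly equal length. Differences in adapter ligation between sequences can move such an order and were not measured here.

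miR-138-5p, the brake on dendritic spines, was the most abundant of the 9 and ranked 37 among all 468 names. It ranged from 2001 to 2608 RPM in CPF libraries, with a median of 2338, and from 1870 to 2814 RPM in control libraries, with a median of 2336. Every CPF value lay inside the control range. The means were 2295 ± 190 RPM in CPF libraries and 2287 ± 323 RPM in control libraries (SD, n = 11 each). The log2 fold change on the log2(RPM + 1) scale was 0.01 (SE 0.0758, adjusted p = 0.974, limma with Benjamini-Hochberg adjustment over 273 names). Its 95% interval, -0.14 to 0.17, spans folds of 0.906 to 1.12.

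miR-218a-5p ranked 49 of 468. It ranged from 800 to 1524 RPM in CPF libraries, with a median of 1225, and from 664 to 1572 RPM in control libraries, with a median of 1295. The groups overlapped over nearly their whole range, and the lowest CPF library was replicate 1. The means were 1212.5 ± 208 RPM in CPF libraries and 1210 ± 246 RPM in control libraries (SD, n = 11 each), a log2 fold change of 0.01 (SE 0.122, limma adjusted p = 0.974). The interval of -0.24 to 0.26 corresponds to folds of 0.850 to 1.2.

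miR-137-3p ranked 99 of 468 and rested on 13 to 41 reads per library. It ranged from 174 to 502 RPM in CPF libraries, with a median of 345, and from 245 to 455 RPM in control libraries, with a median of 299. The lowest and the highest library of the series were both CPF libraries, replicates 7 and 5. The means were 330 ± 90.5 RPM in CPF libraries and 324 ± 76.3 RPM in control libraries (SD, n = 11 each). The log2 fold change was 0.01 (SE 0.163, limma adjusted p = 0.983), with an interval of -0.33 to 0.34, or folds of 0.797 to 1.27.

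The name rno-miR-138, without an arm, ranked 118 of 468 and rested on 9 to 28 reads per library. It ranged from 94.8 to 338 RPM in CPF libraries, with a median of 240, and from 128 to 365 RPM in control libraries, with a median of 253. The means were 228 ± 64.4 RPM in CPF libraries and 260 ± 78.8 RPM in control libraries (SD, n = 11 each). The log2 fold change of -0.19 (SE 0.200, limma adjusted p = 0.911) had an interval of -0.60 to 0.22, or folds of 0.662 to 1.17. CPF replicate 1, which stood apart in miR-181a-5p, held the lowest value of all libraries, and without it the log2 fold change was -0.07.

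**Figure D1:**
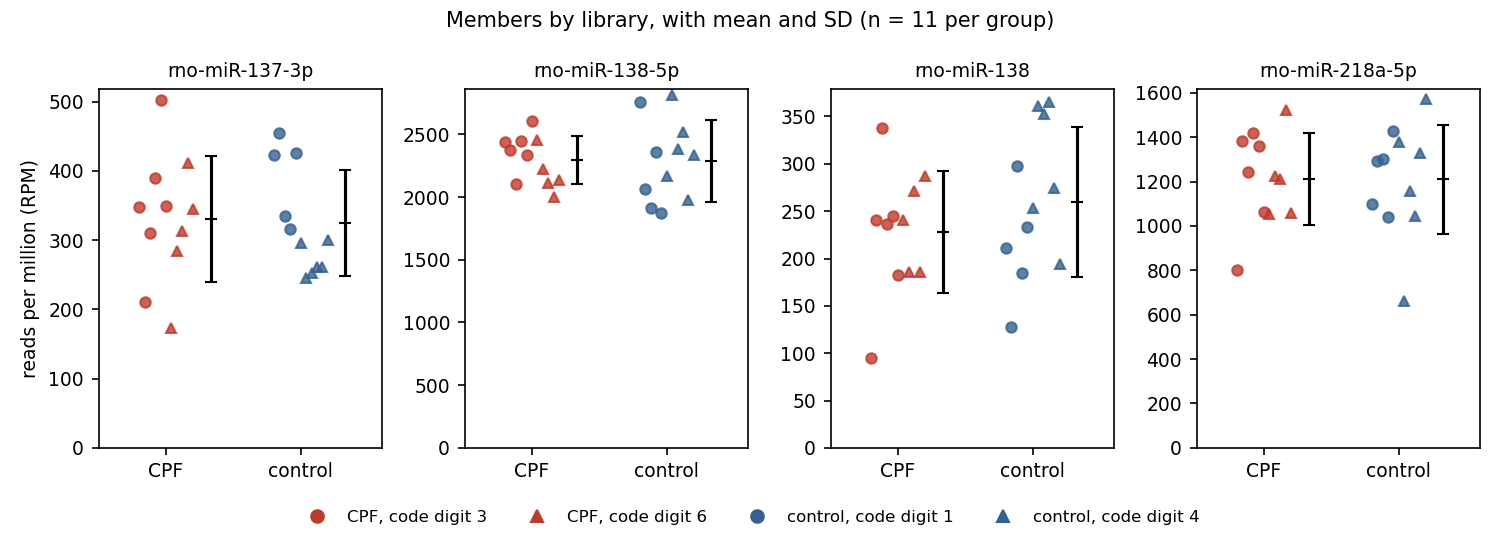
RPM of the 4 abundant names in each of 11 CPF and 11 control libraries, with the mean and SD as a bar beside the points. Each panel has its own axis from 0, and marker shape gives the first digit of the library code. The groups overlap in each panel; miR-138-5p lies between 2001 and 2608 RPM in CPF libraries and between 1870 and 2814 RPM in control libraries.

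Of the 9 names, 7 passed the filter of at least 10 RPM in at least 11 libraries. The 2 left out were miR-218a-1-3p and miR-218b. Since 1 read was worth 10.5 to 20.9 RPM, 1 read was enough to reach 10 RPM, which is under the floor of 3 reads. Of the 7 tested, 0 passed an adjusted p of 0.05 by limma, against a background of 2 of 273 names, or 0.733%, namely miR-132-3p and miR-212-5p, both higher in CPF rats. At an unadjusted p under 0.05 there were 0 of the 7 and 18 of the 273 names. The median log2 fold change was 0.01 over the 7 names, 3 of which averaged under 3 reads, and 0.02 over all 273. With a filter of 50 RPM in at least 11 libraries, 4 of the 9 names were tested and 0 passed by limma, against 2 of 181 names. On the recovered reads, edgeR tested 4 of the 9 names and 0 passed, where 4 of 140 names did (2.86%). DESeq2 tested 8 of the 9 and 0 passed, where 5 of 416 names did (1.2%). With CPF replicates 7, 8 and 9 left out, the log2 fold changes were 0.14 for miR-137-3p, 0.02 for miR-138-5p, -0.21 for miR-138 and 0.03 for miR-218a-5p.

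**Figure D2:**
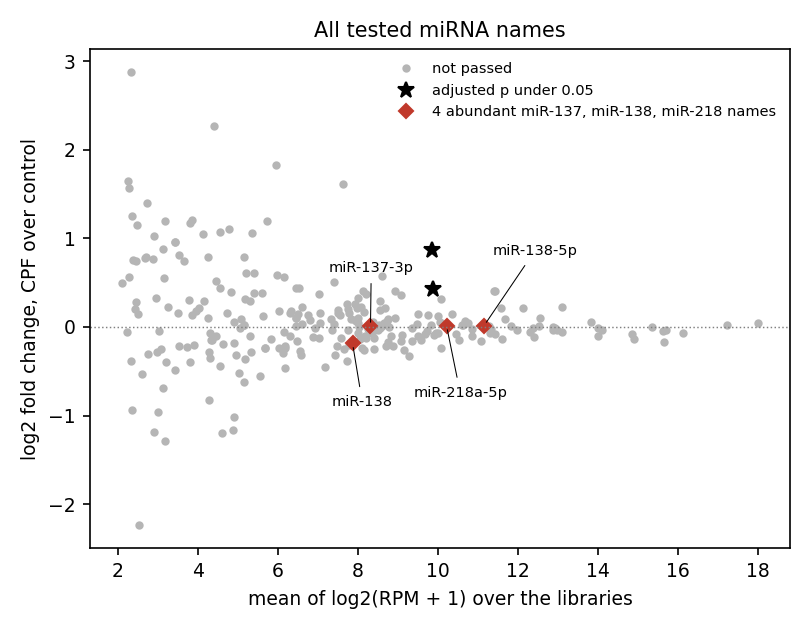
Log2 fold change of CPF over control against the mean of log2(RPM + 1), for the 273 tested names. Diamonds are the 4 abundant names, which lie between -0.19 and 0.01, and stars are miR-132-3p and miR-212-5p. The 3 tested miR-138 and miR-218 names with under 3 reads on average are not drawn, while other miRNA names at such levels are.

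The star arms were near the limit of detection. miR-138-1-3p held 13 reads over the CPF libraries and 19 over the control libraries, and miR-138-2-3p held 8 and 5. These arms come from the Mir138-1 and Mir138-2 hairpins printed above, and reads assigned to each arm were present in both groups. No CPF library held more than 2 reads of miR-138-2-3p and no control library more than 1, under the floor of 3 reads. Such counts do not settle whether Mir138-2 was expressed in either group. Of all miR-138 reads, 3p arms made up 21 of 2076 in CPF libraries (1.01%, 95% Wilson interval 0.663 to 1.54%) and 24 of 2017 in control libraries (1.19%, 0.801 to 1.76%). miR-218a-1-3p, from the Slit2 intron, held 5 reads in each group, and miR-218a-2-3p, from the Slit3 intron, held 21 in each. CPF replicate 1 held 8 of the 21 in CPF libraries, and the other 10 held 13. 3p arms made up 26 of 1006 miR-218 reads in CPF libraries (2.58%, Wilson interval 1.77 to 3.76%) and 26 of 966 in control libraries (2.69%, 1.84 to 3.91%). The intervals cover counting error only. No fold is given for these names, since each averaged under 3 reads in CPF and in control libraries.

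miR-218b had 0 reads in all 22 libraries. A count of 0 allows up to 3.68 RPM over the 815472 reads of the CPF libraries and up to 3.85 RPM over the 779674 reads of the control libraries. Its RefSeq sequence is shown beside miR-218a-5p because the molecules are antisense to each other, with the paired stretch in capitals.
rno-miR-218b: CAUGGUUAGAUCAAGCACAA
rno-miR-218a-5p: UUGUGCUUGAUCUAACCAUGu
All 20 bases of miR-218b are the reverse complement of bases 1 to 20 of miR-218a-5p. Its gene, Mir3565, overlaps Mir218-1 on the opposite strand within Slit2. The sources used here do not say whether the counting used strand, so an assignment of antisense reads to miR-218a-5p cannot be told apart from their absence.

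The names that share a number were set against each other within each library, where the library total drops out. rno-miR-138 amounted to 10.1 ± 3.26% of miR-138-5p in CPF libraries and 11.4 ± 3.33% in control libraries (SD, n = 11 each), a difference of -0.20 in the log2 ratio (permutation test, p = 0.371, adjusted p = 0.999 over 5 ratios). Without CPF replicate 1 this difference was -0.07. The first row of miR-218a-5p averaged 1072 ± 190 RPM in CPF libraries and 1064 ± 223 RPM in control libraries. The second row averaged 140 ± 47.6 RPM in CPF libraries and 146 ± 44.7 RPM in control libraries. The log2 ratio of the second row to the first differed by -0.09 between CPF and control libraries (permutation test, adjusted p = 0.999). This value was -0.17 without control replicate 6 and -0.03 without CPF replicate 3. The files do not say what sets the rows apart, and how reads were split between the rows, or between rno-miR-138 and rno-miR-138-5p, is not given in the sources used here. The ratios between the 3 numbers differed by -0.01 (miR-137-3p over miR-138-5p), 0.00 (miR-218a-5p over miR-138-5p) and -0.01 (miR-137-3p over miR-218a-5p), each with an adjusted p of 0.999 by the same test.

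The spread between libraries was set against counting error, which at this depth is large for the rarer names. Within groups the coefficient of variation of miR-138-5p was 11.6%, where counting alone gives 7.84%. For miR-218a-5p it was 18.8%, where counting gives 10.8%. For miR-137-3p the values were 25.6% and 20.7%, and for miR-138 they were 29.5% and 24.0%. The observed spread was thus 1.74 times the counting error for miR-218a-5p, 1.48 times for miR-138-5p and 1.23 times for miR-137-3p and for miR-138. The 108 other names with means of 150 to 4000 RPM had a median of 1.34 times, with quartiles of 1.09 and 1.70. miR-218a-5p was just above the upper quartile and the other 3 lay between the quartiles.

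**Figure D3:**
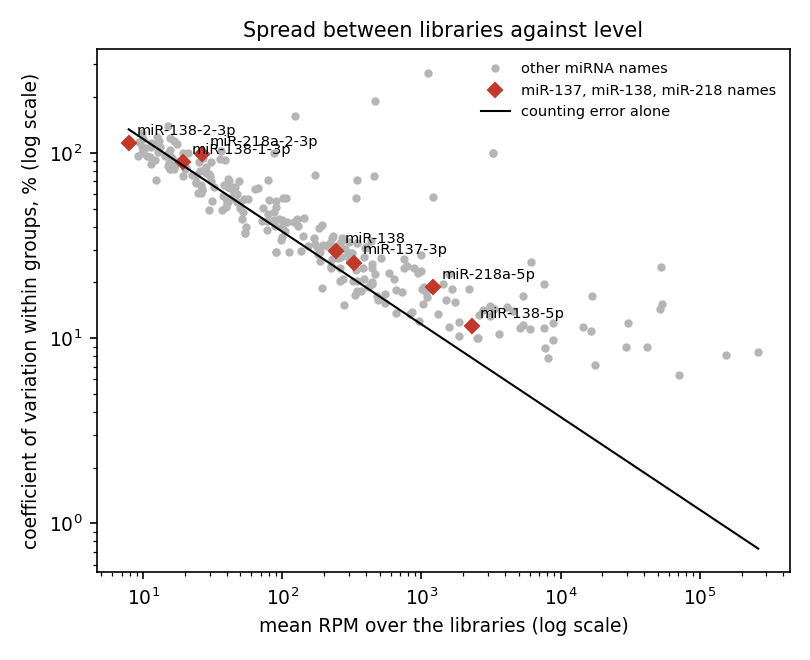
Coefficient of variation within groups, in percent, against mean RPM for the 273 tested names, both on log scales. The line is the spread that counting reads would give at a typical depth; miR-137-3p (25.6%) and miR-138 (29.5%) lie just above it, and miR-138-5p (11.6%) and miR-218a-5p (18.8%) farther above.

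Across the libraries, miR-218a-5p was low where miR-138-5p was high. Over the 22 libraries Pearson's r of their log2(RPM + 1) values was -0.61 (permutation p = 0.0021, adjusted p = 0.0105) and Spearman's rho was -0.57 (permutation p = 0.00626, adjusted p = 0.0313), both adjusted over the 10 relations of this paragraph and the next. Without the 2 libraries farthest from the median, r was -0.60. Within the CPF libraries r was -0.40 (permutation p = 0.230) and within the control libraries -0.72 (permutation p = 0.00924), and these values were not tested against each other. Control replicate 7 held both the lowest miR-218a-5p, 664 RPM, and the highest miR-138-5p, 2814 RPM. Without it, r was -0.49 over the other 21 libraries (permutation p = 0.0241) and -0.61 within the other 10 control libraries (permutation p = 0.0659). Within libraries that share a first code digit, r was -0.31 for digit 3 (n = 6) and -0.72 for digit 6 (n = 5) among CPF libraries, and -0.86 for digit 1 (n = 5) and -0.80 for digit 4 (n = 6) among control libraries. The values share the library total. Against the log2 read total of the library, r was -0.23 for miR-218a-5p (permutation p = 0.291) and 0.16 for miR-138-5p (permutation p = 0.482). The other 3 pairs did not pass: r was 0.01 for miR-138 and miR-138-5p (adjusted permutation p = 0.975), -0.25 for miR-137-3p and miR-138-5p (adjusted permutation p = 0.363) and 0.28 for miR-137-3p and miR-218a-5p (adjusted permutation p = 0.363).

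The relation of miR-218a-5p to the neuron marker sum passed by Pearson's r and by Spearman's rho, and that to the oligodendrocyte sum by r only. The relations of miR-138-5p to these sums did not pass. The summed RPM of 4 oligodendrocyte names (miR-219 and miR-338, known for promoting oligodendrocyte differentiation) was 33453 to 81828 in CPF libraries and 47329 to 90058 in control libraries. Control replicate 7 held the highest oligodendrocyte sum and, at 51396 RPM, the lowest neuron sum of the 22 libraries. CPF replicate 1, with the lowest miR-218a-5p of the CPF libraries, held the highest oligodendrocyte sum among them. The sum of 8 vessel wall and muscle names, miR-143 among them, was 221172 to 313435 RPM in CPF libraries, lowest in replicate 1. In control libraries it was 222253 to 283859 RPM, lowest in replicate 7. Its relation to the 9 names was not tested. Over the 22 libraries r of miR-218a-5p was -0.59 with the log2 oligodendrocyte sum (permutation p = 0.00438, adjusted p = 0.0146; rho -0.44, adjusted permutation p = 0.0970) and 0.67 with the log2 neuron sum (permutation p = 0.0013, adjusted p = 0.0105; rho 0.66, adjusted permutation p = 0.0122). Without the 2 libraries farthest from the median of the sum these were -0.48 and 0.62. For miR-218a-5p and the oligodendrocyte sum r was -0.57 within CPF libraries and -0.71 within control libraries (permutation p = 0.0727 and 0.0584), and for miR-218a-5p and the neuron sum 0.41 and 0.84 (permutation p = 0.221 and 0.00262). For miR-138-5p r was 0.25 with the oligodendrocyte sum (adjusted permutation p = 0.363) and -0.44 with the neuron sum (adjusted permutation p = 0.0954). Without the 2 libraries farthest from the median of the sum these were -0.02 and -0.44. Within CPF libraries they were 0.16 and 0.04 (permutation p = 0.650 and 0.906). Within control libraries they were 0.42 and -0.68 (permutation p = 0.201 and 0.0257). Most of the neuron sum is miR-9a-5p, and most of the oligodendrocyte sum is miR-338-3p, with a mean of 53109 RPM over the libraries. All these values share the library total. In whole tissue, a change in the share of cells and a change in RNA per cell cannot be told apart, and the part of cell composition in the relation of miR-218a-5p to miR-138-5p was not tested. The relations with the read total and with the marker sums were added after the data were seen.

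**Figure D4:**
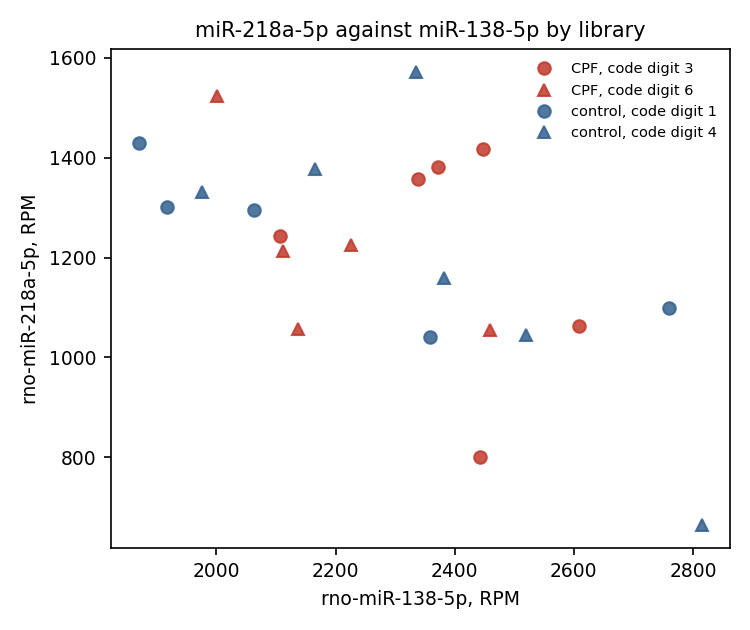
RPM of miR-218a-5p against RPM of miR-138-5p, 1 point per library, with colour for the group and shape for the first digit of the library code. Control replicate 7 is at the lower right, at 2814 RPM of miR-138-5p and 664 RPM of miR-218a-5p.

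The 3 names whose pattern across the libraries was most like each leading name were found by Spearman's rho after group means were taken off, among 121 other names with a mean of at least 200 RPM over 22 libraries. These values are descriptions and share the library total. For miR-218a-5p they were miR-101a-3p (rho 0.79), miR-9a-5p (0.76) and let-7i-5p (0.71). For miR-138-5p they were miR-24 and miR-26a-5p (0.58 each) and miR-191a-3p (0.49). For miR-137-3p they were miR-379-3p (0.55), miR-130a-3p (0.53) and let-7d-5p (0.52). The median rho over the 121 names was 0.01 for miR-218a-5p, 0.04 for miR-138-5p and -0.02 for miR-137-3p. The named values are the highest of 121 and were not tested. miR-101a-3p, the nearest to miR-218a-5p, averaged 6109 ± 1602 RPM in CPF libraries and 6057 ± 1540 RPM in control libraries (SD, n = 11 each).

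The library codes in the labels begin with 3 or 6 in CPF libraries and with 1 or 4 in control libraries, and the meaning of this digit is not stated in them. Among the control libraries, all miR-137-3p values of digit 4 lay below those of digit 1. It averaged 269 ± 22.8 RPM in the 6 control libraries of digit 4, where the range was 245 to 299. It averaged 391 ± 61.4 RPM in the 5 control libraries of digit 1, where the range was 316 to 455. The log2 difference of -0.53 (95% interval -0.96 to -0.09, unadjusted p = 0.0200 by limma) had an adjusted p of 0.917, and 0% of the 273 names passed in this contrast. At an unadjusted p under 0.05 by limma there were 10 of the 273 names, and miR-137-3p ranked 4 by p. How many other names separate the control digits as fully was not counted, and this contrast was chosen after the data were seen. In CPF libraries the mean was 305 ± 87.3 RPM for digit 6 (n = 5) and 351 ± 95.6 RPM for digit 3 (n = 6), and these overlapped; 0% of names passed there too. miR-138 had 300.2 ± 70.3 RPM in control libraries of digit 4 and 211 ± 62.5 RPM in those of digit 1, with a log2 difference of 0.52 (limma adjusted p = 0.947).

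The CPF comparison of miR-137-3p was also made by digit, in every pairing, because no label matches the digits across groups. Its log2 fold change was -0.19 for digit 3 over digit 1 and 0.13 for digit 6 over digit 4. It was 0.34 for digit 3 over digit 4 and -0.40 for digit 6 over digit 1. None of these passed (lowest limma adjusted p = 0.765), and the average over the digits was -0.03. The background was 0.366% of names for the first pairing, 0.366% for the second, 0% for the third, 0.733% for the fourth and 0.733% for the average. The difference between the third and the fourth effect was 0.74 (95% interval 0.12 to 1.36, limma unadjusted p = 0.0213, adjusted p = 0.562), and that between the first and the second was -0.32 (limma adjusted p = 0.865), with 0% of names called in either test of a difference. Both differences contain the gap between the control digits given above, so neither is a separate result. For miR-138-5p the 4 pairings gave log2 fold changes of -0.11 to 0.13, for miR-138 of -0.49 to 0.18 and for miR-218a-5p of -0.04 to 0.06. Digit and treatment are nested in these labels, so their effects cannot be told apart.

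**Figure D5:**
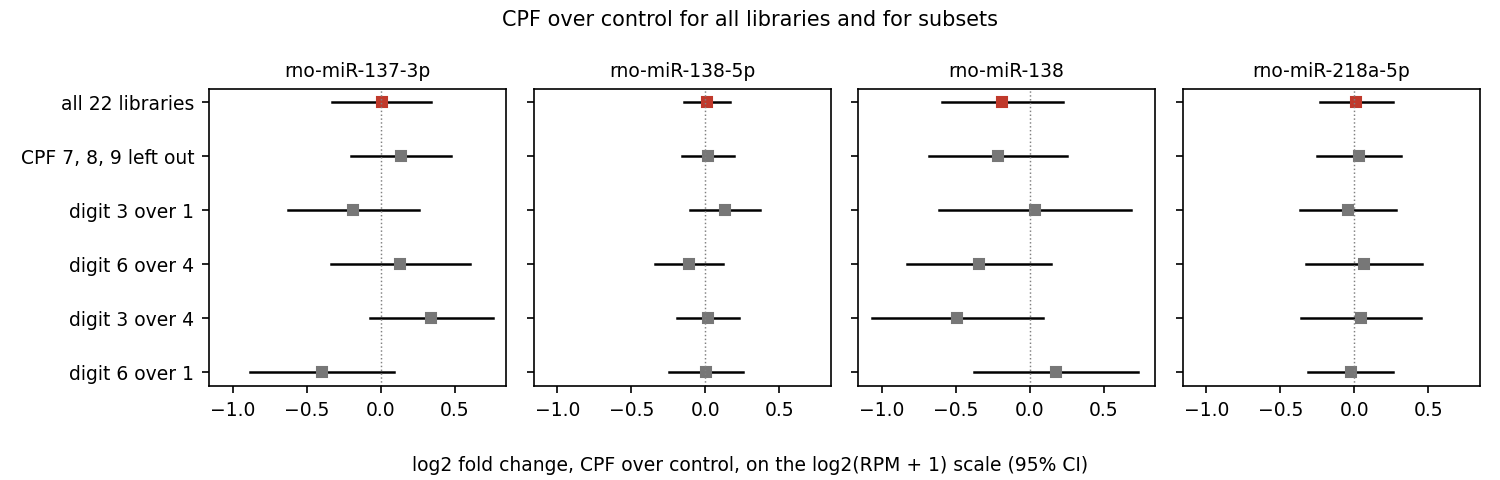
Log2 fold change of CPF over control with its 95% interval for the 4 abundant names, for all 22 libraries, without CPF replicates 7, 8 and 9, and for each pairing of library code digits fitted alone. Every interval includes 0; miR-137-3p runs from -0.40 (digit 6 over digit 1) to 0.34 (digit 3 over digit 4).

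Other miRNAs known to act at synapses were taken as a list of 49 names, of which 35 were tested. By limma 2 rose in CPF rats, 0 fell and 33 did not pass, with a median log2 fold change of 0.06. They are the only names called among all 273 tested (0.733%), and the list was chosen with earlier results known. miR-132-3p, which is induced by neuronal activity through CREB, averaged 1292 ± 362 RPM in CPF libraries and 698 ± 159 RPM in control libraries (SD, n = 11 each), with a log2 fold change of 0.87 (SE 0.154, limma adjusted p = 0.00131). miR-212-5p, which is made from the same transcript, averaged 1101 ± 129 RPM in CPF libraries and 820 ± 106.3 RPM in control libraries, with a log2 fold change of 0.43 (SE 0.0864, limma adjusted p = 0.00456). The list's most abundant names had log2 fold changes near 0, at -0.04 for miR-29a-3p (53264 ± 7953 RPM in CPF libraries, 54741 ± 8529 in control libraries) and -0.04 for miR-9a-5p (50852 ± 7160 RPM in CPF libraries, 52435 ± 7700 in control libraries). In control libraries the mean levels of miR-138-5p and miR-218a-5p were both above that of miR-132-3p. For miR-138-5p the upper end of the interval, a fold of 1.12, lies below the fold of 1.83 fitted for miR-132-3p.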

How the data were processed

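Small RNA libraries from rat hippocampus (11 CPF, 11 control) were sequenced, and the deposited files give a value in reads per 1000000 (RPM) per miRNA name, per the file headers. CASAVA 1.8.2, cutadapt 1.2, Bowtie, Partek 6.6 and the build rn4 are named, without roles, per the submitters' processing notes; the sources used here do not give the miRNA annotation or how strand and multi-mapping reads were treated. Since the reference tables are of GRCr8, no coordinates are printed. RPM were added up for names on several rows. In control replicate 2 the last 36 rows (967 RPM) are lacking; they were treated as missing and hold none of the 9 names. The most common low value in each library was taken as 1 read; 91.8 to 97.3% of a library's values were whole reads to within 5% of a read, and the recovered reads were rounded for count tests.

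Names that reached 10 RPM in 11 or more libraries were tested on log2(RPM + 1) by limma 3.58.1 with a trend (R 4.3.3), two-sided, at a Benjamini-Hochberg adjusted p of 0.05; a pseudocount understates changes of low names. Ratios and correlations used 100000 permutations (SciPy 1.17.1), two-sided. edgeR 4.0.16, DESeq2 1.42.0 and other settings were alternatives. Libraries of a group differed by more than sampling noise (chi-square of 2.49 or more per degree of freedom). Apart from the 9 names, the text names the 3 most alike names of each leading name and, of the synaptic list, those that passed and the 2 most abundant. The members and lists were chosen with earlier results of these data known. miR-181a-5p and miR-153-3p were named after its values were seen.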

Additional observations from a re-analysis of the deposited data

How the results depend on the processing

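None of the names tested passed under any alternative run, where 4 to 9 of the 9 names were tested. With edgeR on recovered reads 4 names of the whole table passed (TMM or RLE scaling), with DESeq2 5, and with each pairing of code digits fitted alone 1; names missing from the 140 of edgeR were filtered by its own rule. Some log2 fold changes differed in sign from the main fit, not all of them near 0, and none passed the threshold. For miR-137-3p they were -0.0015 with library weights, -0.19 for digit 3 over 1 and -0.40 for digit 6 over 1. For miR-138-5p they were -0.0039 with RLE and -0.11 for digit 6 over 4. For miR-138 they were 0.034 for digit 3 over 1 and 0.18 for digit 6 over 1. For miR-218a-5p they were -0.0074 with RLE, -0.044 for digit 3 over 1 and -0.025 for digit 6 over 1. The cause was not tested. Leaving out each library in turn gave 2 to 3 names called and log2 fold changes of -0.059 to 0.093 for miR-137-3p, -0.014 to 0.045 for miR-138-5p, -0.28 to -0.067 for miR-138 and -0.070 to 0.072 for miR-218a-5p. The log2 ratios then ran from -0.075 to 0.090 (miR-137-3p over miR-138-5p), from -0.078 to 0.073 (miR-137-3p over miR-218a-5p) from -0.11 to 0.068 (miR-218a-5p over miR-138-5p), from -0.28 to -0.071 (miR-138 over miR-138-5p) and from -0.17 to -0.031 (the miR-218a-5p rows). Within CPF libraries r of miR-138 and miR-138-5p was -0.38. With the replicate block 2 names were called, no call changed, and miR-138 had a log2 fold change of -0.19 (limma adjusted p = 0.917). Same-numbered libraries correlated at -0.09 to 0.19, which shows no clear shared effect. These values cannot tell whether the numbers mark a shared litter, batch or day, and the labels do not say. The rounding of recovered reads, the code digit contrasts within a group, the ratio of the miR-218a-5p rows and the r values by digit, without single libraries, against read totals or marker sums were chosen after seeing the data. At 9 to 41 reads per library, counting error makes up most of the spread of miR-137-3p and miR-138, which limits the differences that could be detected.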
